A study of Homo sapiens with 6 samples.

Results

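The RAB genes encode the largest family of small GTPases of the RAS superfamily. Of the 58302 genes listed in the expression table, 19847 were protein-coding, and 62 of these carried a symbol made of RAB, digits and at most 1 letter and 1 further digit. Pseudogenes with a symbol of the same form (8 genes) were left out. The RNA of the 62 genes was measured in SW480 and DLD-1, established human lines of colorectal cancer (CRC). Both were listed with a wild-type (WT) genotype and without treatment. The paper describes both lines as p53 mutant, so this genotype entry does not mean that their genes are unmutated. In each line, 1 Input library of total RNA, 1 library of RNA pulled down with NAT10, an RNA acetyltransferase (RIP-seq), and 1 library of RNA pulled down through N4-acetylcytidine (ac4C), the modification that NAT10 writes (acRIP-seq), were sequenced. Each of the 6 groups held 1 library, so every value below describes libraries and no difference has a replicate check.

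RAB proteins switch between a GTP-bound form, which sits on a membrane and recruits effectors such as tethers and motors, and a GDP-bound form, which is carried in the cytosol by a GDP dissociation inhibitor (GDI). Exchange factors (GEFs) load GTP, GTPase-activating proteins (GAPs) end the active state, and a prenyl tail added by RAB prenyltransferase holds the protein on its membrane. Each organelle of the secretory and endocytic routes carries its own RABs, and in polarised intestinal epithelium several members sort cargo to the apical surface.

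Values were FPKM (fragments scaled to transcript length and library size), a level per length that can be compared between genes. The FPKM values of the RIP and Input libraries were traced back to whole reads, which summed to between 10772667 and 25514585 reads per library at least. Of 13 markers of colorectal epithelium, between 11 and 13 were above 0 in each library, whereas the fibroblast list summed to at most 0.381 FPKM and the endothelial, leukocyte and neuron lists to at most 0.808, 1.16 and 3.40 FPKM. Over the 62 RAB genes, the library labelled RIP SW480 was nearer to the Input labelled DLD-1 (Pearson r 0.897 across genes of log2(FPKM + 1)) than to the Input labelled SW480 (r 0.726). The library labelled RIP DLD-1 was likewise nearer to the Input labelled SW480 (r 0.946) than to the Input labelled DLD-1 (r 0.653). Groups were kept as labelled, and each RIP value is therefore given over the Input of the same label and over that of the other label. Which of these labels is right was not tested.

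The levels of the family were uneven. In the Input labelled SW480, 51 of the 62 genes were above 0 and 19 reached 10 FPKM, against 58 and 16 in the Input labelled DLD-1. RIP SW480 held 59 of the genes above 0 and RIP DLD-1 held 55. The 5 most abundant members took 52.8% of all RAB FPKM in Input SW480 and 50.5% in Input DLD-1. RAB7A, RAB11B and RAB1A were among the first 5 in both Inputs, with RAB25 and RAB11A beside them in Input SW480 and RAB10 and RAB5B in Input DLD-1. At the other end, RAB40A was at 0 in all 4 libraries, and RAB44 was at 0 except for 0.0563 FPKM in RIP DLD-1. The second table of Input values, deposited with the acRIP data, listed RAB40A at 0.207 FPKM in Input DLD-1. RAB41 was above 0 only in the Inputs, at 0.955 FPKM in Input SW480 and 0.828 in Input DLD-1, recovered as at least 5 and 4 reads. In the second table RAB41 was at 0 and 0.963 FPKM. RAB38, which acts in melanosome formation, was at 0 in both Inputs, with 0.922 FPKM in RIP SW480 and 0.0271 in RIP DLD-1.

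**Figure D1:**
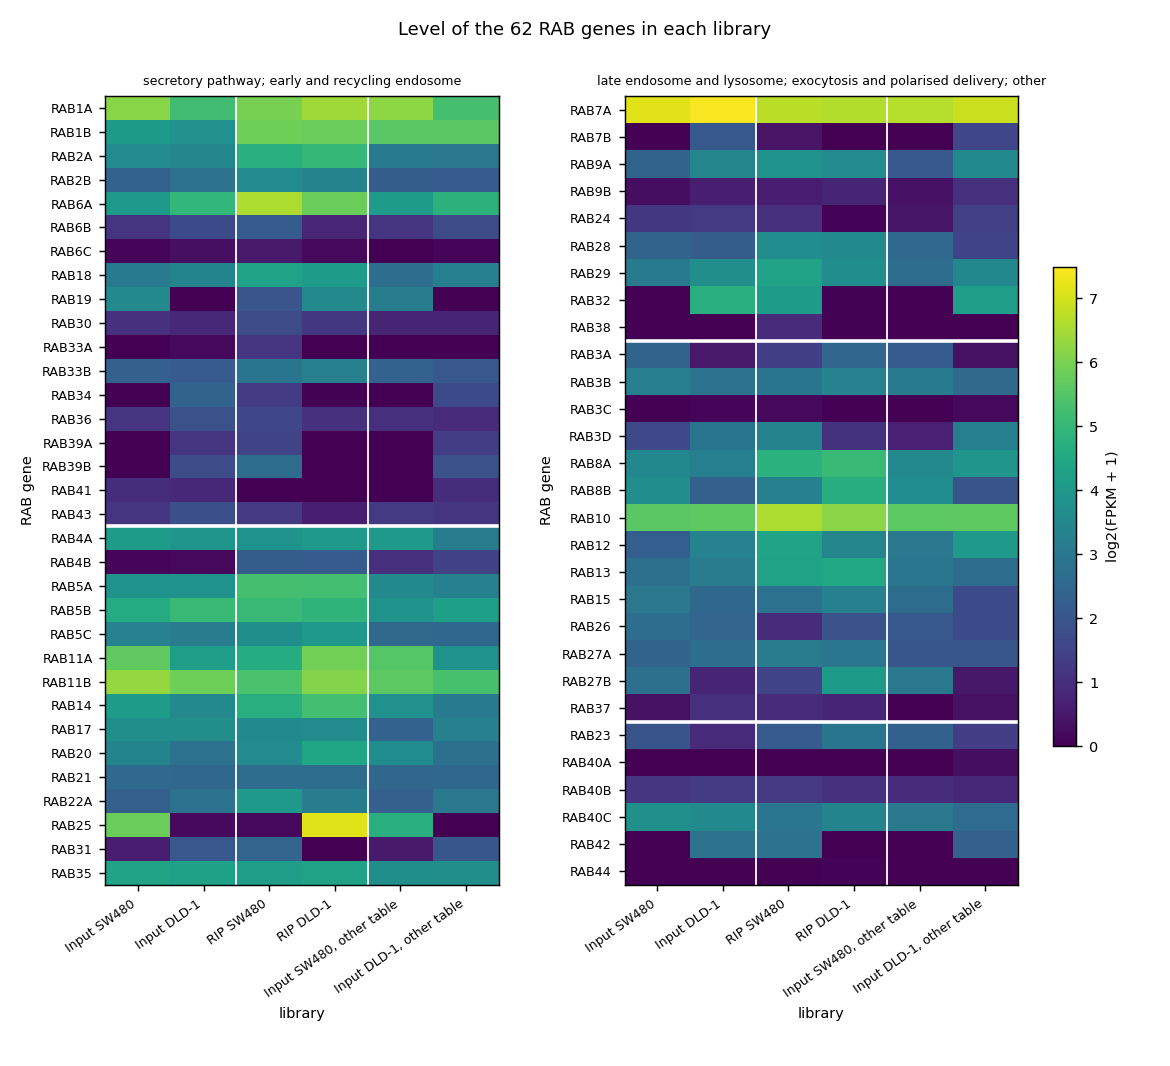
Heat map of log2(FPKM + 1) for the 62 RAB genes (rows, grouped by role) in each library (columns); the last 2 columns of each panel are the Input columns of the table deposited with the acRIP data ("other table"). RAB7A was the brightest row in both Inputs, and RAB25, RAB32 and RAB19 changed from dark to bright between libraries of 1 kind.

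The largest differences between the lines were seen in RAB25 and RAB32. RAB25, the epithelial member of the RAB11 group that recycles cargo to the apical membrane, was at 55.5 FPKM in Input SW480 and 0.133 in Input DLD-1, but at 0.122 in RIP SW480 and 139 in RIP DLD-1. The reads behind these values were 450, 1, 2 and 1943. RAB32, which guides cargo to lysosome-related organelles, showed the mirror image, with 0 FPKM in Input SW480, 25.4 in Input DLD-1, 16.3 in RIP SW480 and 0.0326 in RIP DLD-1. For both genes, the RIP library of one label and the Input of the other label held the RNA, and the remaining 2 libraries held 0 to 2 reads. Against a floor of 3 reads, RAB32 was at least 151-fold higher in Input DLD-1 than in Input SW480. RAB25 was 416-fold higher in Input SW480 than in Input DLD-1 (95% counting interval 74.2 to 16450).

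The same opposition ran through the members that differed most between the lines. RAB19, a Golgi-linked member, was at 10.6 FPKM in Input SW480, 0 in Input DLD-1, 2.91 in RIP SW480 and 10.5 in RIP DLD-1. RAB27B, which docks secretory vesicles at the plasma membrane, had 5.81, 0.712, 1.84 and 15.8 FPKM in the same order. RAB3A, a regulator of synaptic and hormone vesicle release, had 4.25, 0.436, 1.63 and 4.52 FPKM. RAB19, RAB27B and RAB3A were all higher in Input SW480 and in RIP DLD-1. On the other side stood RAB42, at 0 FPKM in Input SW480, 5.93 in Input DLD-1, 6.06 in RIP SW480 and 0 in RIP DLD-1. RAB34, which acts in lysosome positioning and ciliogenesis, had 0, 4.19, 1.51 and 0.0225 FPKM in that order. RAB39B, a neuronal member, had 0, 2.30, 5.34 and 0 FPKM. These genes were listed at 0 to 0.0225 FPKM in both Input SW480 and RIP DLD-1. RAB31, which works between the trans-Golgi network and endosomes, had 0.472, 3.07, 4.43 and 0.0196 FPKM, and RAB7B, of the late endosome, had 0, 3.17, 0.325 and 0 FPKM.

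In counts, the Inputs differed at least 2-fold, on the log2(FPKM + 1) scale, which makes changes of low genes look smaller, in 17 of the 62 members. Among protein-coding genes above 0, they did so in 2998 of 16196. RAB3A, RAB8B, RAB11A, RAB19, RAB23, RAB25 and RAB27B were the 7 higher in Input SW480. RAB3D, RAB7B, RAB9A, RAB12, RAB31, RAB32, RAB34, RAB39A, RAB39B and RAB42 were the 10 higher in Input DLD-1. The difference between the RIP libraries had the opposite direction in 17 of these 17 genes and passed 2-fold in 13. Over all protein-coding genes whose Inputs differed at least 2-fold, the RIP difference was opposite in 2806 of 2998 (93.6%), so the RAB genes shared this with the whole table. The RIP difference passed 2-fold in 1831 of the 2998. The Input columns of the acRIP table gave the same direction as the RIP-table Inputs in 17 of 17 members and in 2898 of the 2998 protein-coding genes. Across the 62 members the Input difference and the RIP difference had a Pearson r of -0.91, which describes genes measured in the same 4 libraries. Only 5 of the 17 genes passed the filter of at least 1 FPKM in both Inputs that the counts below use. Among these 39 genes, 2 were at least 2-fold higher in Input SW480 (6.66% of protein-coding genes) and 3 were higher in Input DLD-1 (8.95%). In the RIP libraries, RAB3D and RAB6B were at least 2-fold higher in RIP SW480 (7.99%), and RAB8B and RAB11A were higher in RIP DLD-1 (5.65%). The Input and RIP differences had opposite signs in 36 of the 39 (78.3% of protein-coding genes). In the acRIP table, RAB8B, RAB11A and RAB28 were at least 2-fold higher in Input SW480 (7.88%), and RAB3D, RAB9A and RAB12 were higher in Input DLD-1 (8.46%).

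**Figure D2:**
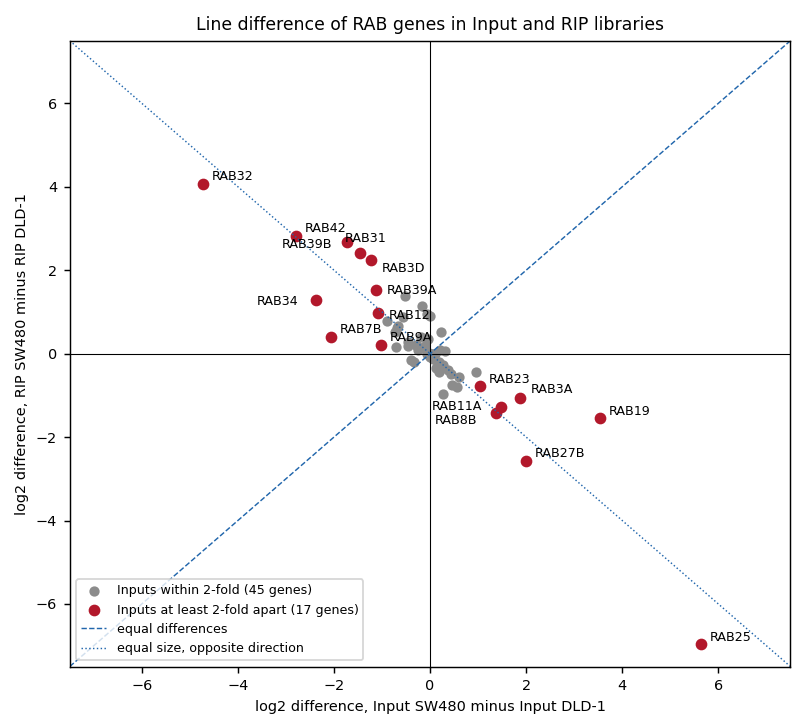
Each point is 1 of the 62 RAB genes, with the log2 difference (FPKM + 1) of Input SW480 minus Input DLD-1 on the x axis and of RIP SW480 minus RIP DLD-1 on the y axis. The 17 genes with Inputs at least 2-fold apart (red) lie in the quadrants of opposite direction, with RAB25 and RAB32 at the ends.

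To show promoters of members that differed between the Inputs, the 250 bases before the annotated start are printed for 4 genes. RAB25 and RAB19 were the 2 with the largest excess in Input SW480, and RAB32 and RAB31 were higher in Input DLD-1. The latter pair was chosen after its values were seen, as CpG-dense examples. RAB42 differed more between the Inputs than RAB31 (log2 -2.79 against -1.47) and is not printed. The printed bases were copied from RefSeq (GRCh38.p14) and run 5′ to 3′ on the plus strand. Capitals mark CpG dinucleotides, the places where promoter DNA can be methylated. The windows are chr1:156060910-156061159 for RAB25, chr7:140403808-140404057 for RAB19, chr6:146543583-146543832 for RAB32 and chr18:9708051-9708300 for RAB31.
RAB25: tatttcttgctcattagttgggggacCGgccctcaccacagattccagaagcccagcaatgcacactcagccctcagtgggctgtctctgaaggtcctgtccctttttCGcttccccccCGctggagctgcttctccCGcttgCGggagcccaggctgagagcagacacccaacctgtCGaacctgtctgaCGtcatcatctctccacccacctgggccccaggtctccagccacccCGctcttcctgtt
RAB19: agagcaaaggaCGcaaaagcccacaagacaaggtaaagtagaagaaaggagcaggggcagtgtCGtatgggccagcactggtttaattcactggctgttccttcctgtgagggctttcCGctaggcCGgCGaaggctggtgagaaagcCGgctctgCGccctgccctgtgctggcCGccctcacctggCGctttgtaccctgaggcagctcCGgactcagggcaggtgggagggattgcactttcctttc
RAB32: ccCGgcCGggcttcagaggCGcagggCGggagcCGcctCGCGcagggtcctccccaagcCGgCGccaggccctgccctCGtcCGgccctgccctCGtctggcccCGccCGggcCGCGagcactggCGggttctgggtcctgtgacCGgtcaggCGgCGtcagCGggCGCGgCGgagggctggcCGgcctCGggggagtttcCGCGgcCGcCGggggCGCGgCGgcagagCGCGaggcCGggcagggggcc
RAB31: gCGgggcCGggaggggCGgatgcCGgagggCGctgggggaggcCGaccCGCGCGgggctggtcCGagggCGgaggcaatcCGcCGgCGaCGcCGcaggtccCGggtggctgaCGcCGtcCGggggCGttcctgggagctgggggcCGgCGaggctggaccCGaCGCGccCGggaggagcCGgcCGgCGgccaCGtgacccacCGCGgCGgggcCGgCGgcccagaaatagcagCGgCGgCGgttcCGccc

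The RAB25 window held 8 CpGs and the RAB19 window 10, against 36 in RAB32 and 40 in RAB31. This contrast came from the choice of examples, since RAB42, also higher in Input DLD-1, held 7. A window was counted as CpG-rich at a GC content of at least 50% and an observed-to-expected CpG ratio of at least 0.6. By this measure 37 of the 49 RAB genes with a window were CpG-rich (75.5%), against 67.0% of 14746 protein-coding genes. The share was 5 of 7 among members higher in Input SW480, where RAB25 and RAB19 were the exceptions, and 6 of 8 among members higher in Input DLD-1, where RAB42 and RAB7B were. The E-box CAGGTG was searched on both strands (CAGGTG or CACCTG). It occurred in 11 of the 49 RAB genes (22.4%) and in 21.6% of all protein-coding genes with a window. RAB25 and RAB19 held it, which was 2 of the 7 members higher in Input SW480 (28.6%). Among members with Inputs within 2-fold it occurred in 9 of 34 (26.5%), and among those higher in Input DLD-1 in 0 of 8. Such a match describes letters in a window and no more. Where a gene had several annotated starts, it was counted if any of its windows met the condition, and 13 of the 62 genes had no window in the table.

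Which RAB mRNAs were richer in the NAT10 precipitate than in Input was compared next, over the 39 members with at least 1 FPKM in both Inputs. The measure was log2((RIP FPKM + 1)/(Input FPKM + 1)). RIP SW480 was at least 2-fold above Input SW480 for 15 members (38.5%), against 17.4% of 10350 protein-coding genes, and at least 2-fold below for RAB11A and RAB26 (9.17% of protein-coding genes). RIP DLD-1 was at least 2-fold above Input DLD-1 for 12 members (30.8%, against 16.7%) and below for RAB3D, RAB24 and RAB43 (12.8%). The medians over the members were 0.45 and 0.36, and over all protein-coding genes 0.18 and 0.07. At least 2-fold above Input in both label pairs were RAB1B, RAB2A, RAB5A, RAB8A, RAB13 and RAB28, that is 6 of 39 (15.4%) against 3.86% of protein-coding genes. At least 2-fold below Input in both were 0 members (1.26% of protein-coding genes). The ratio had opposite signs in the label pairs for 15 members, against 47.6% of protein-coding genes.

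With the Inputs crossed, 10 members were at least 2-fold higher in RIP SW480 (10.1% of protein-coding genes) and 13 in RIP DLD-1 (10.0%). Only RAB26 was at least 2-fold lower in RIP SW480 (3.93%) and only RAB24 in RIP DLD-1 (4.51%), and 0 members were lower in both (1.97%). Higher in both were 9 members (6.15% of protein-coding genes), namely the same 6 genes with RAB6A, RAB12 and RAB14. Opposite signs were left for RAB3D, RAB5B and RAB6B (19.0% of protein-coding genes had them). RIP values of both libraries thus lay closer together over the crossed Inputs, with a Pearson r of 0.88 across the 39 genes against 0.16 over the Inputs of the same label.

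These counts depended on how the Input was quantified. Over the Input columns of the acRIP table, scaled to the RIP-table Inputs, 8 members were at least 2-fold higher in RIP SW480 (19.9% of protein-coding genes) and 10 in RIP DLD-1 (18.5%), and RAB2A and RAB5A alone were higher in both (4.5%). At least 2-fold lower were 2 members in RIP SW480 (8.4%), 4 in RIP DLD-1 (11.7%) and 0 in both (1.33%), and 21 had opposite signs (48.2%). With these columns crossed, 6 members were higher in RIP SW480 (12.2%) and 7 in RIP DLD-1 (12.4%), and RAB2A, RAB5A, RAB6A and RAB13 were higher in both (7.17%). Lower were 1 in RIP SW480 (4.03%), 0 in RIP DLD-1 (4.14%) and 0 in both (1.87%), and 11 had opposite signs (23.0%). In RIP SW480 the share of RAB genes above 2-fold thus lay near that of all genes when the acRIP-table Input of the same label was used. After scaling, the acRIP-table Input exceeded the RIP-table Input for 28 of the 39 members in SW480 and 24 in DLD-1. The excess passed 2-fold in both lines for RAB1B (log2 1.99 and 2.35) and RAB12 (1.22 and 1.25). For RAB8A it passed 2-fold in DLD-1 only (1.20). RAB2A and RAB5A were thus the members at least 2-fold above Input in both RIP libraries under all 4 choices of Input.

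**Figure D3:**
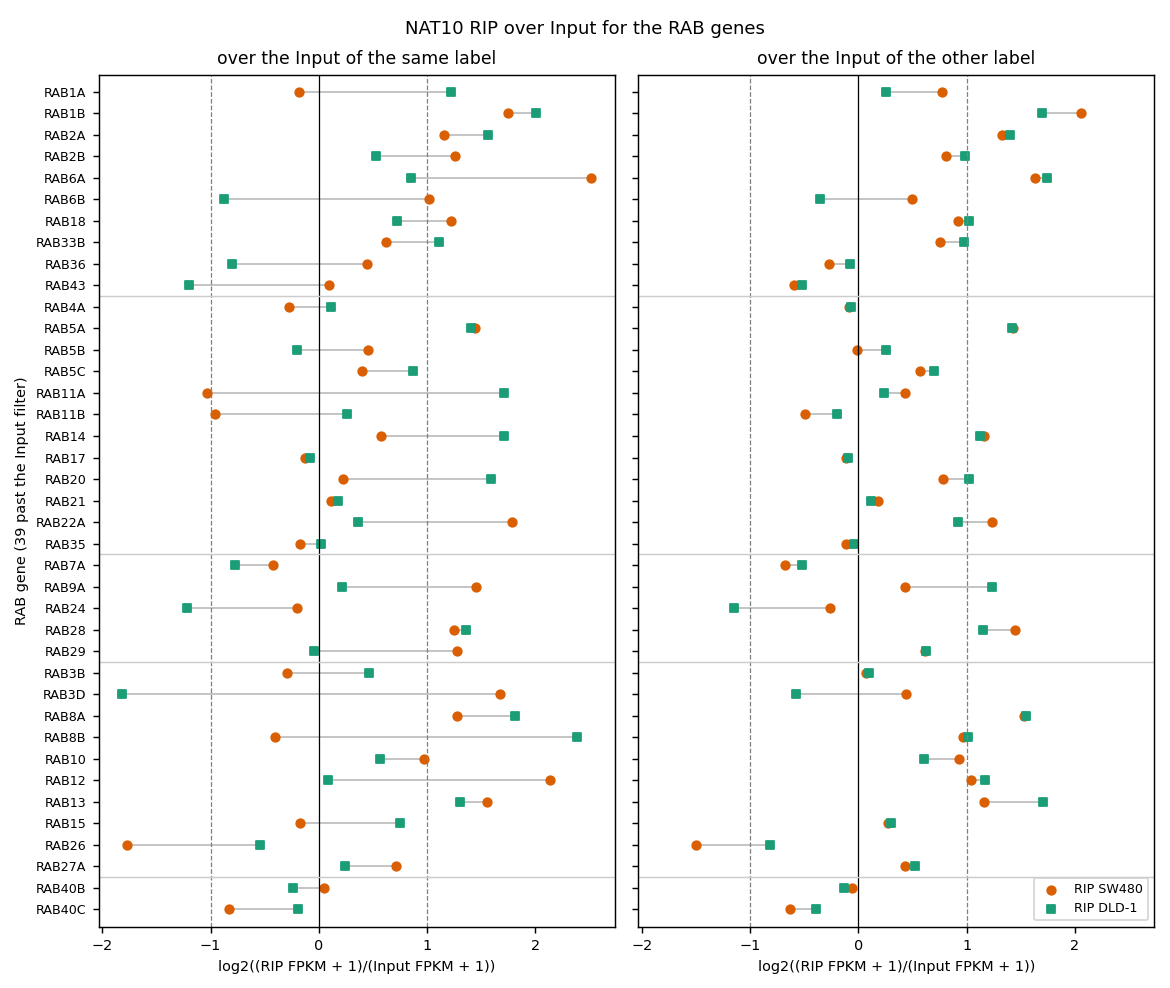
Log2 ratio of RIP to Input for the 39 RAB genes past the Input filter (rows, grouped by role), over the Input of the same label (left) and of the other label (right); circles are RIP SW480, squares RIP DLD-1, and dashed lines mark 2-fold. Paired points lie closer together on the right, and 9 members stand past 2-fold there in both libraries.

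In the secretory pathway (18 members, 10 past the filter), the median log2 ratio over Input of the same label was 1.09 in RIP SW480 and 0.79 in RIP DLD-1. RAB1B, which moves vesicles from the endoplasmic reticulum (ER) to the Golgi, was at 56.6 FPKM in RIP SW480, 16.1 in Input SW480, 54.5 in RIP DLD-1 and 12.8 in Input DLD-1. Both RIP values were more than 3-fold above both Inputs, with log2 ratios from 1.70 to 2.06 over the 4 pairs. The acRIP table, however, listed its Inputs at 46.8 and 46.7 FPKM, below both RIP values. After these Inputs were scaled to the RIP-table Inputs (by 1.43 and 1.49), the ratios over the same label lay below 0 (-0.24 and -0.35). Its close relative RAB1A had 62 FPKM in RIP SW480, 70.6 in Input SW480, 84.5 in RIP DLD-1 and 35.8 in Input DLD-1. The log2 ratio of RAB1A was -0.19 in SW480 and 1.22 in DLD-1, and 0.78 and 0.26 over the other Input. How reads shared by such paralogues were counted is not given in the sources used here.

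RAB2A, needed for ER to Golgi traffic, was at 26.3 FPKM in RIP SW480 and 31.2 in RIP DLD-1, against 11.2 in Input SW480 and 9.90 in Input DLD-1. Its plain fold was 2.34 (95% counting interval 2.14 to 2.55) in SW480 and 3.15 (2.87 to 3.47) in DLD-1. Both RIP values of RAB2A lay above both Inputs. RAB6A, which drives transport at the Golgi, had 95 FPKM in RIP SW480, 15.8 in Input SW480, 55.1 in RIP DLD-1 and 30.1 in Input DLD-1. Its log2 ratios of 2.52 and 0.85 over the same label became 1.63 and 1.74 over the other label, and the first was the highest ratio of the 39 members past the filter in RIP SW480. RAB18, of lipid droplets and the ER, had 18.8, 7.49, 16.2 and 9.45 FPKM in this order of libraries. RAB36 was low at 2.02, 1.22, 1.10 and 2.65 FPKM, and with the added 1 FPKM its ratios were within 2-fold in all 4 pairs, although its plain fold in DLD-1 was 0.415. Of the remaining members past the filter, RAB2B, RAB6B, RAB33B and RAB43 were below 12 FPKM in each library, and RAB6C, a retrogene of RAB6A, was at most 0.461 FPKM.

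Among the RABs of early and recycling endosomes (15 members, 12 past the filter) the medians were lower, at 0.17 and 0.31. RAB5A, the master regulator of early endosome fusion, was at 37.7 FPKM in RIP SW480, 13.2 in Input SW480, 37.1 in RIP DLD-1 and 13.4 in Input DLD-1. The log2 ratio of RAB5A varied least of all the members past 2-fold, from 1.41 to 1.45 over the 4 pairs. Its paralogues were less enriched: RAB5B had 32.6, 23.6, 28.4 and 32.8 FPKM in the same order of libraries. RAB5C had 12.3, 9.12, 15.4 and 7.98 FPKM, with log2 ratios of 0.40 and 0.87. Of the 3 RAB5 genes, RAB5A alone was past 2-fold over the RIP-table Inputs, while over the acRIP-table Inputs RAB5C also passed it in RIP DLD-1 (1.02 over the same label).

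The recycling RABs differed by library. RAB11A, which returns cargo from the recycling endosome, was at 24 FPKM in RIP SW480, 50.3 in Input SW480, 59.4 in RIP DLD-1 and 17.5 in Input DLD-1. It was past 2-fold in opposite directions over the Inputs of the same label (-1.04 and 1.71) and within 2-fold over the other Inputs (0.43 and 0.24). RAB11B, the second most abundant member in both Inputs, had 40.1, 78.8, 68.5 and 56.9 FPKM. RAB14, between the Golgi and endosomes, had 25.1, 16.6, 37.2 and 10.6 FPKM and log2 ratios of 1.16 and 1.12 over the other Inputs. RAB4A, of fast recycling, stood nearly level at 13.3, 16.3, 15.4 and 14.2 FPKM, as did RAB35 at 17.3, 19.7, 19.0 and 18.8 FPKM. RAB22A, of early endosomes, had 15.5, 3.79, 8.04 and 6.03 FPKM, and RAB20 had 11.2, 9.46, 20.3 and 6.10 FPKM. RAB22A passed 2-fold in RIP SW480 over both RIP-table Inputs, and RAB20 in RIP DLD-1 over both. RAB17, of polarised epithelium, was at 10.9, 12, 11.2 and 11.9 FPKM, and RAB21, also of endosomes, at 5.46, 4.96, 5.46 and 4.71 FPKM. Neither differed by 2-fold between any pair of these libraries.

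RAB4B did not pass the filter and is singled out after its values were seen. It had 3.59 FPKM in each RIP library, from 211 and 179 reads, but 0.069 in Input SW480 and 0.112 in Input DLD-1, from 2 and 3 reads. In the acRIP table its Inputs were 1.04 and 1.74 FPKM. The plain fold of RAB4B in SW480 was 52.0, with a counting interval from 14.2 to 433, and rested on the RIP-table Input.

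For the late endosome and lysosome (9 members, 5 past the filter), the most abundant RAB was on the side of Input. RAB7A, which directs late endosomes to lysosomes, was at 105 FPKM in RIP SW480, 142 in Input SW480, 98.6 in RIP DLD-1 and 169 in Input DLD-1. Both RIP values were below both Inputs, at 0.743-fold (0.705 to 0.783) and 0.582-fold (0.551 to 0.614) over the same label, which is within 2-fold. RAB9A, which returns mannose-6-phosphate receptors to the Golgi, had 13.3, 4.23, 11.3 and 9.59 FPKM. RAB28, of cilia and photoreceptors, had 11.6, 4.31, 10.8 and 3.60 FPKM and passed 2-fold in all 4 pairs over the RIP-table Inputs, from 1.15 to 1.45. Over the scaled acRIP-table Inputs, the ratios of RAB28 ran from 0.54 to 1.71. RAB24, linked to autophagy, was low, at 1.02, 1.32, 0.0436 and 1.42 FPKM. RAB24 rested on 2 reads in RIP DLD-1. Its log2 ratio there was -1.22 with the added 1 FPKM. Its plain fold, without the added 1 FPKM, was lower and had a wide counting interval (0.00357- to 0.119-fold). RAB29, of the trans-Golgi network, had 19.2, 7.30, 11.8 and 12.2 FPKM.

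The RABs of exocytosis and polarised delivery (14 members, 10 past the filter) had medians of 0.84 and 0.51. RAB8A, which delivers cargo to the surface and the primary cilium, was at 26.4 FPKM in RIP SW480, 10.4 in Input SW480, 32.2 in RIP DLD-1 and 8.46 in Input DLD-1. RAB13, which sorts tight junction proteins, had 19.0, 5.80, 21.1 and 7.96 FPKM. Both were past 2-fold in all 4 pairs over the RIP-table Inputs, RAB8A from 1.27 to 1.81 and RAB13 from 1.16 to 1.70. Over the scaled acRIP-table Inputs, RAB8A ran from 0.33 to 1.04 and RAB13 from 0.91 to 1.32. RAB10, abundant and active in basolateral and GLUT4 transport, had 93.7, 47.3, 72.7 and 48.8 FPKM and stayed just within 2-fold, from 0.56 to 0.97. RAB8B had 8.57, 11.7, 24.6 and 3.91 FPKM, and its ratio ran from -0.41 in SW480 to 2.38 in DLD-1. RAB12 had 19.7, 3.71, 9.62 and 9.05 FPKM, and RAB3D, of secretory granules, had 9.15, 2.18, 1.13 and 6.50 FPKM. RAB3D was past 2-fold in opposite directions in the label pairs, at 1.68 and -1.81, whereas RAB8B was past it in DLD-1 only. RAB27A, the exosome and granule counterpart of RAB27B, had 7.81, 4.37, 6.74 and 5.53 FPKM. RAB26 had the lowest ratio of the 39 members in SW480, at 0.931, 5.59, 2.75 and 4.47 FPKM. Both RIP values of RAB26 lay below both Inputs, with 0.167-fold (0.120 to 0.229) in SW480 and 0.614-fold (0.475 to 0.795) in DLD-1. Among the RABs of other roles, RAB40C, a subunit of a ubiquitin ligase, had 6.71, 12.7, 9.45 and 10.9 FPKM. Of the members not given so far, RAB3B and RAB15 lay between 4.76 and 8.93 FPKM in each library, and RAB40B and RAB30 between 0.791 and 2.32 FPKM. RAB23, of ciliary signalling, had 3.43, 2.86, 6.61 and 0.888 FPKM, RAB39A had 1.88, 0, 0 and 1.17 FPKM, and RAB3C, RAB9B, RAB33A and RAB37 were at most 1.21 FPKM in any library.

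Where the RAB mRNAs carried ac4C was read from the deposited peak lists, which were called per library. Coordinates are on GRCh38. SW480 had 41 peaks on 26 RAB genes and DLD-1 had 64 peaks on 30. All listed peaks were counted, although 4 of these in SW480 and 3 in DLD-1 had a listed false discovery rate (FDR) that was not below 0.05. They included the only peak of RAB7B, the only peak of RAB30 and the only SW480 peak of RAB1A. A peak in both lines was listed for 18 genes, in SW480 only for 8, in DLD-1 only for 12 and in neither for 24. Among the 39 members past the Input filter, 23 had a peak in SW480 (59.0%, against 51.1% of protein-coding genes) and 24 in DLD-1 (61.5%, against 56.8%). In both lines there were 16 (41.0%, against 40.3%), and in at least 1 line 31 (79.5%, against 67.7%). The share of RAB genes with a peak was thus near that of all genes in each line.

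The peaks lay mostly in 3′ untranslated regions (UTRs). In SW480, 30 of 41 RAB peaks were in a 3′ UTR (73.2%, exact binomial 95% interval 57.1 to 85.8%), against 53.0% of all 9536 peaks. In DLD-1 the count was 44 of 64 (68.8%, 55.9 to 79.8%), against 41.5% of 13964 peaks. These intervals treat peaks as separate, although several can lie on 1 gene. Coding sequence held 4 RAB peaks in SW480 and 15 in DLD-1 (9.76% and 23.4%, against 24.3% and 38.4% of all peaks). A 5′ UTR peak was listed only on RAB1A (fold 4.88) and RAB34 (fold 22), both in DLD-1. At least 1 site of the authors' repeated CXX pattern (C and then any bases) was present in 24 of 41 RAB peaks in SW480 and 34 of 64 in DLD-1 (58.5% and 53.1%, against 56.2% and 55.1% of all peaks).

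**Figure D4:**
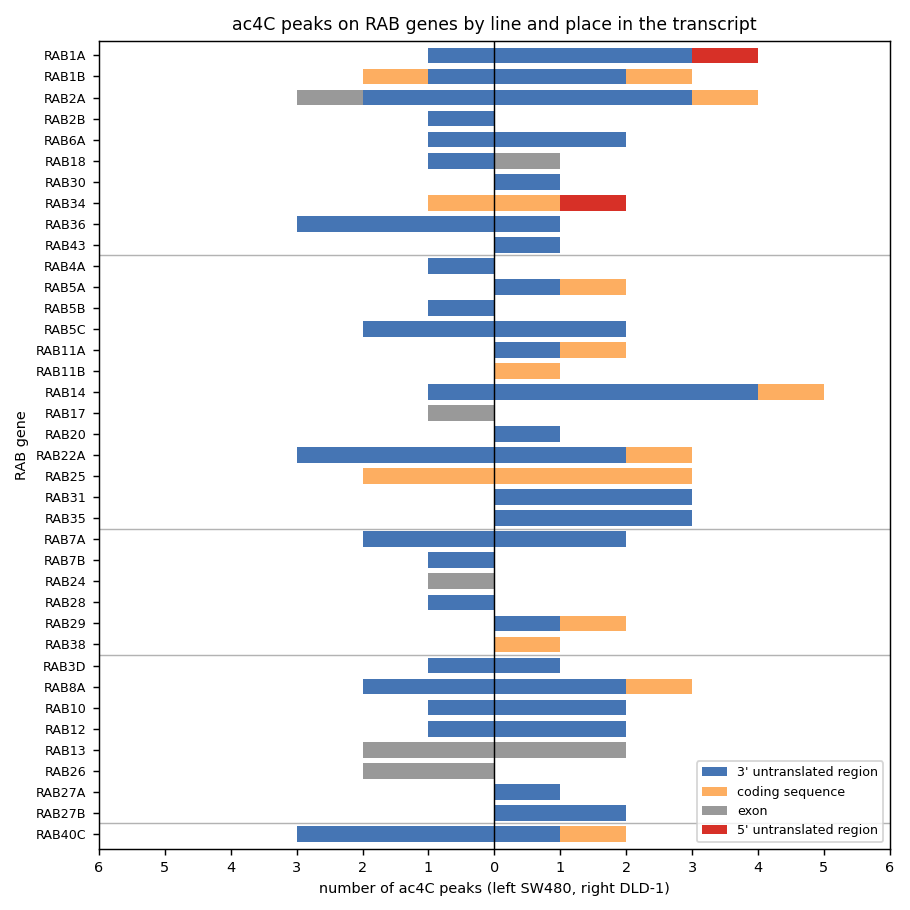
Number of ac4C peaks on each of the 38 RAB genes with a peak (rows, grouped by role), with SW480 to the left and DLD-1 to the right of 0 and colours for the place in the transcript. Blue 3′ UTR peaks make up 30 of 41 in SW480 and 44 of 64 in DLD-1, and RAB14 has the most in 1 library, with 5 in DLD-1.

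Peaks of both lines overlapped by at least 1 base on the same strand in 24 pairs on 16 genes. That was 58.5% of the RAB peaks in SW480 and 37.5% of those in DLD-1, against 55.3% and 36.5% of all peaks. In 17 of the 24 pairs both peaks lay in a 3′ UTR. RAB10 and RAB18 had peaks in both lines that did not overlap. The fold of acRIP over Input was higher in SW480 for 13 pairs and in DLD-1 for 11.

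RAB34 had the highest fold of any RAB peak, in its coding sequence at chr17:28714311-28715000, with 1160 in SW480 and 526 in DLD-1 and the same ends in both lists. Its Input SW480 was listed at 0 FPKM, as given above, so the SW480 fold was set over an Input with no reads for the gene in the expression table. RAB1B followed in SW480, with a 3′ UTR peak at chr11:66277013-66277462 and a fold of 615, against 17.1 for the overlapping peak in DLD-1. The 6 pattern sites listed in that RAB1B peak had the same positions in both lists. RAB25 had 2 overlapping pairs of opposite direction. Its coding peak at chr1:156070104-156070454 had the same ends in both lists, with a fold of 8.80 in SW480 and 271 in DLD-1. Input DLD-1 held 0.133 FPKM of RAB25 in the RIP table, from 1 read, and 0 in the acRIP table. The second coding pair of RAB25, at chr1:156068271-156069806 in SW480, had 51.5 in SW480 and 14.2 in DLD-1.

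RAB13 had 2 exonic peaks in each line, the larger at chr1:153981707-153982245 in SW480 with a fold of 215, against 71.1 in DLD-1. RAB14 had a 3′ UTR pair at 149 and 18.1, and 4 further peaks in DLD-1, the highest at 89.7. The main 3′ UTR peak of RAB7A had folds of 20.5 and 78.7, and that of RAB8A 40.6 and 69.2. RAB2A had 2 overlapping pairs, with 62.5 and 83.4 for one and 47.9 and 36.2 for the other. RAB6A had 41.3 and 12.8, RAB3D 57.3 and 13.4, RAB40C 76.0 and 27.5, and RAB12 10.4 and 33.8. Pairs on RAB1A, RAB5C, RAB22A and RAB36 had folds between 5.47 and 24.4. No single direction between the lines thus ran through the shared peaks.

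Among genes with a peak in 1 line, RAB17 (fold 245) and RAB26 (fold 206) had high exonic peaks in SW480. The RIP-table Inputs of both genes were similar in the lines, as given above, but the acRIP table listed RAB17 at 4.14 FPKM in Input SW480 and 8.56 in Input DLD-1. RAB24 had an exonic peak of 54.1 and RAB5B a 3′ UTR peak of 37.0, also in SW480. In DLD-1 the highest were the 3′ UTR peak of RAB5A at 47.2 and the coding peak of RAB11A at 33.6, with 3 peaks each on RAB31 and RAB35. RAB38 carried a coding peak of 30.7 in DLD-1 and RAB7B a 3′ UTR peak of 9.37 in SW480, although the Input of that label was at 0 FPKM for both, and the RAB7B peak was not below the FDR of 0.05. RAB27B had 2 peaks in DLD-1, at 7.87 and 7.08, and none in SW480, where its Input was the higher, and the smaller of these peaks was not below the FDR of 0.05. Peak calls depend on the level of the RNA, and the part of level in these calls was not tested.

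**Figure D5:**
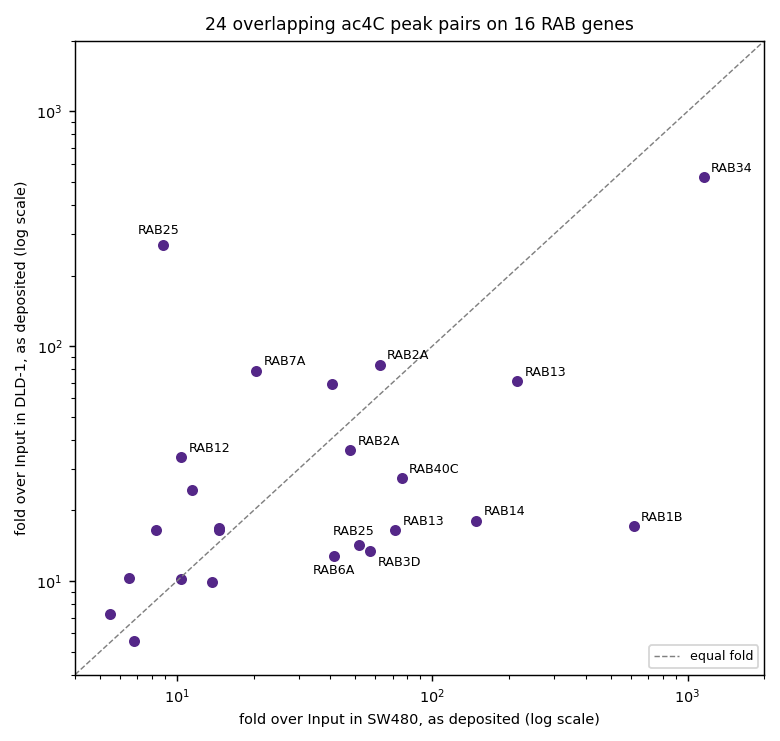
Fold of acRIP over Input in SW480 (x axis) and DLD-1 (y axis), both on log scales, for the 24 overlapping peak pairs on RAB genes; the dashed line marks equal fold. RAB34 is highest in both, RAB1B and RAB14 lie far on the SW480 side, and 1 of the 2 RAB25 pairs lies far on the DLD-1 side.

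Finally the 2 assays were joined by gene. Among members past the filter, those with a peak in SW480 had a median log2 RIP/Input of 0.97 (23 genes), against 0.10 for the 16 without. In DLD-1 the medians were 0.64 (24 genes) and 0.18 (15 genes). Over protein-coding genes the medians with and without a peak were 0.21 and 0.14 in SW480 and 0.20 and -0.12 in DLD-1. Members with a peak also had higher Inputs, with a median of 10.4 against 7.06 FPKM in SW480 and 10.3 against 4.71 FPKM in DLD-1. The part of Input level in these medians was not tested. With the Inputs crossed, the medians of the members with and without a peak were 0.81 and 0.43 in SW480 and 0.66 and 0.12 in DLD-1. Over protein-coding genes they were then 0.14 and 0.09 in SW480 and 0.18 and -0.03 in DLD-1. All 6 genes past 2-fold in RIP of both label pairs carried a peak in at least 1 line, as did 79.5% of the 39 members. RAB1B, RAB2A, RAB8A and RAB13 had it in both lines, RAB5A in DLD-1 and RAB28 in SW480.

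The genes that act on RABs were counted in the same way. Of 8 genes for prenylation and GDP dissociation, 2 were at least 2-fold above Input in SW480 (17.4% of protein-coding genes) and 3 in DLD-1 (16.7%). GDI2, the main carrier of RABs in the cytosol, was at 153 FPKM in RIP SW480, 179 in Input SW480, 167 in RIP DLD-1 and 160 in Input DLD-1. Both RIP values of GDI2 were within 2-fold of their Inputs. CHML, an escort protein for prenylation, was at 4.65, 12.6, 17.1 and 3.80 FPKM, with ratios of -1.27 and 1.91. Its relative CHM had 7.24, 4.56, 7.20 and 6.44 FPKM. RABGGTA and RABGGTB, the subunits of the RAB prenyltransferase, had 13.7, 9.85, 11.9 and 12.4 FPKM and 16.4, 20.5, 28.8 and 10.3 FPKM. RABAC1, a RAB-binding protein of the Golgi, was the 1 gene of this list above 2-fold in both label pairs, at 78.6, 33.2, 79.9 and 38.8 FPKM.

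Among 41 GEFs past the filter, 5 were above and 3 below 2-fold in SW480, and 5 above and 8 below in DLD-1. Over all protein-coding genes, 17.4% were above and 9.17% below in SW480, and 16.7% above and 12.8% below in DLD-1. Of 35 GAPs, 3 were above and 2 below in SW480, and 3 above and 5 below in DLD-1. The 46 effectors had 5 above and 7 below in SW480, and 3 above and 9 below in DLD-1. MICALL2, an effector of RAB8 and RAB13 at junctions, was the 1 effector at least 2-fold below the RIP-table Input in both label pairs. It had 5.57, 14.3, 5.03 and 12.8 FPKM, and 1.26% of protein-coding genes were below in both. Set against the second quantification of Input (acRIP table, scaled), MICALL2 was within 2-fold, with log2 ratios of -0.36 in SW480 and -0.31 in DLD-1. Above Input in both label pairs were 0 GEFs, 0 GAPs and 0 effectors (3.86% of protein-coding genes). When Input came from the acRIP table, 3 genes of the 4 lists together were above it in both (8, 41, 35 and 46 genes tested). The RAB genes then had 2 of 39 (5.13%), against 4.5% of protein-coding genes. The RAB share, 15.4% over the RIP-table Inputs, thus lay near that of all genes with this Input.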

How the data were processed

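The authors deposited FPKM values of the RIP and Input libraries, made by a sequencing provider. A second deposited table gives Input values of both lines that are read here as FPKM, although its unit is not named. cutadapt 2.5, HISAT2 2.1.0 and GRCh38 are named in the submitters' processing notes. The counting tool, the strand setting and the peak caller are not given in the sources used here. For acRIP-seq the authors deposited peak lists per library and pooled, with a p-value, a ratio of acRIP over Input (fold) and the base-10 logarithm of the FDR, used as a score. The FDR is a spreadsheet error in 450 peaks of SW480 and 328 of DLD-1, which were kept. Peak starts, counted from 0, were moved by 1 base. The authors' own RIP ratios in the RIP table were not used.

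RIP over Input was log2((RIP FPKM + 1)/(Input FPKM + 1)), for genes whose FPKM reached 1 in both Inputs, and a call was a ratio of at least 2 in either direction. With 1 library per group no p-value was computed. Reads were recovered from the FPKM values as the smallest whole numbers in the ratio of the 4 columns (within 0.001) for 23494 of 23515 genes above 0 in at least 2 columns, which was tested on simulated data. A common factor of the columns cannot be seen in this way, so the reads given are minimum values. Intervals are exact binomial ones at 95% and cover counting error only. A fold against 0 reads was set against 3 reads. The depth of the acRIP libraries is unknown.

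RAB genes were placed in roles by hand, and the members and lists were chosen with earlier results of these data known. Values in every library are printed for the members with the 5 highest and 5 lowest ratios of 1 sign in both lines, those past 2-fold over both Inputs in a line, the 5 largest Input differences each way, the 5 most abundant, those with peaks in both lines and textbook members. From the regulator lists, GDI2, CHM, CHML, RABGGTA, RABGGTB and the 2 highest and 2 lowest genes past 2-fold in both pairs are named, and 1 further gene of the rule is not reported here. Python 3.11.15, pandas 2.3.3, numpy 2.4.6 and scipy 1.17.1 were used.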

Additional observations from a re-analysis of the deposited data

Results flagged for a closer look

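For 15 RAB genes the ratio of RIP to Input had opposite signs in the libraries labelled SW480 and DLD-1. The difference of the log2 ratios, SW480 minus DLD-1, was 3.49 for RAB3D, 1.90 for RAB6B, 1.32 for RAB29, 1.29 for RAB43, 1.25 for RAB36, 0.65 for RAB5B and 0.28 for RAB40B. It was -2.79 for RAB8B, -2.75 for RAB11A, -1.40 for RAB1A, -1.22 for RAB11B, -0.92 for RAB15, -0.75 for RAB3B, -0.39 for RAB4A and -0.20 for RAB35. With 1 library per group these differences were not tested. Opposite signs were found for 47.6% of all protein-coding genes, and with the Inputs crossed 3 RAB genes had them.

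A peak on RAB32 with a fold of 14.5 was present only in the list called on the pooled libraries, which the comparisons of lines do not use. Neither line's own list had a peak on RAB32.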

How the results depend on the processing

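No paired analysis was possible because no value comes from a test, each group held 1 library and the labels carry no replicate numbers. RIP and Input were matched only by the line in their labels. With a pseudocount of 0.1, RAB genes at least 2-fold below Input in DLD-1 were 5, regulators above and below Input in both lines 2 and 2, and RAB genes lower in Input SW480 and higher in RIP SW480 5 and 5. With no filter on low values, all 62 members entered in place of 39. RAB genes above and below Input were then 23 and 5 in SW480, 10 were below in DLD-1, and 30 had opposite signs. In Input SW480 7 were higher and 10 lower, and in RIP SW480 9 were higher and 6 lower. With an Input of at least 5 FPKM, these were 8 above and 1 below in SW480, 0 below in DLD-1 and 8 with opposite signs, and the median of RAB genes without a peak in SW480 turned to -0.18. Centring gave 4 RAB genes below Input in SW480, and 0 regulators above and 2 below in both lines. For the changed pseudocount, the changed filters and centring, no matching share of protein-coding genes is given. Whether the counts under these settings are particular to the RAB genes was therefore not tested.

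Over the Input of the other label, 1 RAB gene was below Input in each line, 3 had opposite signs, 2 regulators were above and 3 below in both, and RAB11A in SW480 turned to 0.43. Over the scaled acRIP-table Input, 8 RAB genes were above Input in SW480 and 2 in both lines. With it, 3 regulators were above in both (4.5% of protein-coding genes). The SW480 median without a peak turned to -0.14, and RAB1B turned to -0.24 and -0.35. Over the crossed acRIP-table Input, chosen after seeing the data, 6 and 7 RAB genes were above and 1 and 0 below in SW480 and DLD-1. Peaks at or above the median fold were 21 on 17 RAB genes in SW480 and 31 in DLD-1, with 11 genes in both; the pooled list held 68. The causes were not tested, beyond fewer or more genes or peaks entering a count.

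With 1 library per group, no spread between samples is known. Counting intervals were wide for members with few reads, such as RAB4B in the Inputs and RAB24 in RIP DLD-1.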
